A study of Mus musculus with 12 samples.

Results

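Wild type (WT) mouse embryonic stem (ES) cells were compared before and after 8 days of differentiation. The comparison uses 4 of the 12 libraries of the series: 2 of WT embryoid bodies at day 8 and 2 of WT ES cells at day 0, chosen by the genotype and time in their labels. Day 8 cells had been moved to serum medium without leukaemia inhibitory factor (LIF) and grown as floating aggregates, called embryoid bodies, on low-adherent plates. Day 0 cells were grown on gelatin in serum with LIF, the cytokine that holds mouse ES cells undifferentiated. The WT cells carry no labelled change of genotype. For contrast, 4 libraries of the line labelled WT+1343KO-a14, called 1343KO here, cover the same days in the same media, and its label names 1 clone (a14). The labels do not say whether the 2 libraries of a group came from separate cultures. P-values therefore cover only the spread within groups, pooled over all 12 libraries of the series, and that spread is possibly a technical one. The labels call the cell type of both days embryonic stem cells, and the markers below do not bear that out for day 8: all 4 core pluripotency genes were lower there, while most tested genes of the globin, endoderm factor and mesoderm factor lists were higher.

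ES cells stand for the inner cell mass of the blastocyst, where the transcription factors Oct4 (gene Pou5f1), Sox2 and Nanog hold the pluripotent state. When LIF is withdrawn and cells aggregate, embryoid bodies form an outer layer of endoderm that resembles the visceral endoderm of the yolk sac, and mesoderm inside it gives blood islands, vessels and heart muscle. Visceral endoderm takes up and secretes the proteins that the liver later makes, and the first red cells of the yolk sac carry embryonic globins.

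Expression is given as FPKM, fragment counts scaled to transcript length and to the depth of the library. Changes are differences on the log2(FPKM + 1) scale with their standard error (SE), which understates the change of low genes. Of 16289 genes tested with limma, 8352 passed at a Benjamini-Hochberg adjusted p under 0.05, which is 51.3% of all tested: 26.8% were higher and 24.5% were lower at day 8. At 2-fold or more, 15.2% were higher and 11% lower. Genes were tested if they reached 1 FPKM in 2 or more of the 12 libraries. A gene near 0 at day 0 thus entered only through other libraries and had little room to fall. The libraries of the days did not overlap for 75.2% of tested genes. The median change of all tested genes was 0.0034, and 1 in 20 lay below -1.51 and 1 in 20 above 1.93; the lists below are read beside these values. In bulk RNA, fewer cells of a type and less RNA per cell cannot be told apart.

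Pluripotency genes were lower in embryoid bodies, as a group and by large amounts. All 4 core members fell. The list called naive network here mixes naive factors of ES cells with other pluripotency genes. Of its 20 members 19 fell, with a median change of -3.24. Utf1, a chromatin protein of pluripotent cells, had 12.7 and 15.3 FPKM at day 8, against 285 and 283 FPKM at day 0. L1td1, an RNA-binding protein derived from a transposon, had 30.9 and 31.7 FPKM at day 8, against 378 and 389 FPKM at day 0. The days did not overlap for either gene. Utf1 changed by -4.25 (SE 0.11) and L1td1 by -3.57 (SE 0.06), with limma adjusted p = 8.97e-09 and 1.92e-09. Sall4, a zinc finger factor that also acts in later progenitors, changed least of the core genes: it had 31.1 and 35.5 FPKM at day 8, against 58.2 and 55.6 FPKM at day 0, and fell by 0.76 (SE 0.11, limma adjusted p = 0.000338). Tbx3 was the naive member that did not pass, with 27.4 and 27.3 FPKM at day 8, against 22.9 and 23.7 FPKM at day 0; it was named after its values were seen. Core transcripts were not gone at day 8, since Pou5f1 still had 35.7 and 36.2 FPKM.

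Genes outside the pluripotency lists were among the largest falls. Gbx2, a homeobox factor that sustains ES cell self-renewal downstream of LIF, had 0.520 and 0.373 FPKM at day 8, against 59.0 and 58.2 FPKM at day 0. Upp1, a uridine phosphorylase, had 6.45 and 6.24 FPKM at day 8, against 216 and 197 FPKM at day 0. Spp1, the secreted phosphoprotein osteopontin, had 5.94 and 8.58 FPKM at day 8, against 168 and 179 FPKM at day 0. All 3 passed, with changes of -5.37 (SE 0.21), -4.82 (SE 0.14) and -4.42 (SE 0.16) and limma adjusted p = 1.08e-07, 1.7e-08 and 5.69e-08. Mylpf, a myosin light chain of fast muscle, showed the day 0 libraries apart from each other, at 556 and 89.1 FPKM, against 2.63 and 11.1 FPKM at day 8. Its change of -5.08 had an SE of 0.99 (limma adjusted p = 0.00206); it was -3.76 without day 0 replicate 1, -6.39 without day 0 replicate 2, -4.21 without day 8 replicate 1 and -5.95 without day 8 replicate 2, and passed each time. In a list of long noncoding RNAs (Platr genes, Lncenc1, Snhg3, Rmst and Tug1), 8 of 13 tested members fell and none rose. Lncenc1 had 4.12 and 4.91 FPKM at day 8, against 37.0 and 39.3 FPKM at day 0, and fell by 2.83 (SE 0.10, limma adjusted p = 6.4e-08).

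**Figure D1:**
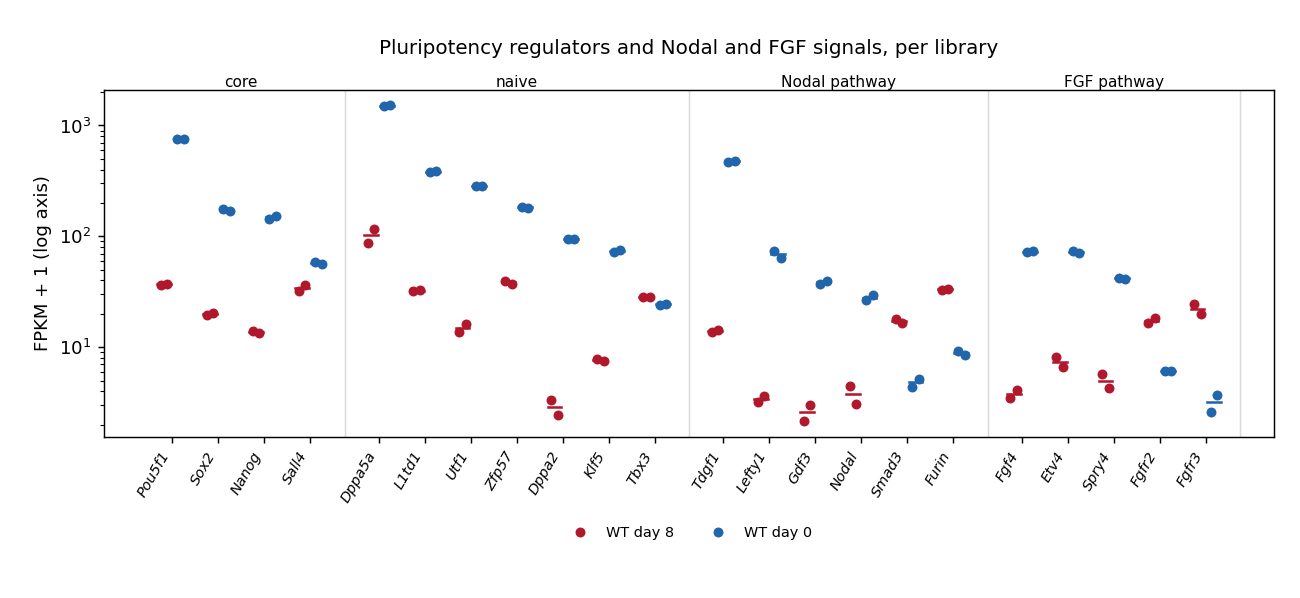
FPKM + 1 (log axis) of pluripotency, Nodal and FGF pathway genes in the 2 WT day 8 libraries (red) and the 2 WT day 0 libraries (blue), with dots for libraries and bars for group means. Core and naive genes lie lower at day 8 apart from Tbx3, while Smad3, Furin, Fgfr2 and Fgfr3 lie higher.

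Nodal, a ligand of the TGF-beta family that patterns the epiblast, had 3.43 and 2.1 FPKM at day 8, against 25.4 and 28.7 FPKM at day 0, and fell by 2.92 (SE 0.19, limma adjusted p = 1.85e-06); the ligand was named after its values were seen. Of the 15 tested members of its pathway 8 fell and 5 rose. Lefty1, a secreted Nodal inhibitor, had 2.2 and 2.63 FPKM at day 8, against 72.6 and 63.2 FPKM at day 0, a fall of 4.33 (SE 0.15, limma adjusted p = 5.59e-08). Smad3, which carries the signal to the nucleus, had 16.9 and 15.5 FPKM at day 8, against 3.42 and 4.21 FPKM at day 0, a rise of 1.84 (SE 0.13, limma adjusted p = 4.15e-06). Furin, a protease that matures such ligands, rose by 1.91 (SE 0.11, limma adjusted p = 9.4e-07).

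In the FGF list 7 of 16 members rose and 8 fell, and ERK targets and feedback genes stood on both sides. Fgf4, the ES cell ligand that drives exit from the naive state, had 2.47 and 3.15 FPKM at day 8, against 71.4 and 72.1 FPKM at day 0. Etv4 and Spry4, targets of the ERK branch, fell by 3.28 (SE 0.18) and 3.08 (SE 0.15), while Egr1, an immediate early ERK target, and Spry1, a feedback inhibitor like Spry4, rose by 1.12 (SE 0.18) and 0.97 (SE 0.13). The receptor Fgfr3 had 23.6 and 19 FPKM at day 8, against 1.62 and 2.73 FPKM at day 0, a rise of 2.83 (SE 0.27, limma adjusted p = 2.33e-05). The other receptors Fgfr1, Fgfr2 and Fgfr4 passed at 0.87 (SE 0.08), 1.5 (SE 0.12) and 0.83 (SE 0.24). Fgfr4 no longer passed with a pseudocount of 0.1 (limma adjusted p = 0.155) or without day 8 replicate 1 (0.114), day 0 replicate 1 (0.0755) or day 0 replicate 2 (0.0527). The phosphatase gene Dusp4, which damps ERK, was the seventh to pass upward, at 0.39 (SE 0.14, limma adjusted p = 0.0434); that call was lost under 4 other settings and without any 1 library other than day 0 replicate 1 and the 1343KO day 0 libraries, at limma adjusted p = 0.0503 to 0.304.

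BMP pathway genes rose in a larger share than those of the Nodal, FGF and Wnt lists, with 16 of 19 members higher, 1 lower and a median change of 1.93. The ligand Bmp5 had 22.5 and 23.1 FPKM at day 8, against 0.0716 and 0.551 FPKM at day 0. Id2, an inhibitor of bHLH factors and a direct BMP target, had 122 and 120 FPKM at day 8, against 11.9 and 11.4 FPKM at day 0. Msx1, a homeobox target, had 38.2 and 32.1 FPKM at day 8, against 0.313 and 1.30 FPKM at day 0. The days did not overlap for any of the 3, with changes of 4.20 (SE 0.24), 3.27 (SE 0.11) and 4.38 (SE 0.25) and limma adjusted p = 8.62e-07, 4.15e-08 and 8.76e-07. Smad7, an inhibitory Smad, was the member that fell, by 0.78 (SE 0.10, limma adjusted p = 0.000143). In the Wnt list 12 of 20 members rose and 2 fell. Wnt5a, a noncanonical ligand, had 11.1 and 12.3 FPKM at day 8, against 0.0800 and 0.340 FPKM at day 0, and rose by 3.40 (SE 0.25, limma adjusted p = 4.82e-06). Sfrp1, a secreted Wnt antagonist, fell by 1.62 (SE 0.11, limma adjusted p = 2.06e-06).

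Globins, the oxygen carriers of red cells, were far higher in embryoid bodies. All 7 globins rose, and their summed level was 1215 and 1345 FPKM at day 8, against 6.72 and 8.19 FPKM at day 0. The embryonic alpha-like globin Hba-x had 257 and 290 FPKM at day 8, against 1.02 and 1.97 FPKM at day 0, and rose by 6.81 (SE 0.36, limma adjusted p = 5.22e-07). Hbb-y, the embryonic epsilon-like globin, had 14 and 18.6 FPKM at day 8 and was listed at 0 in both day 0 libraries. The adult beta globins were low: Hbb-bs had 6.48 and 2.99 FPKM and Hbb-bt 1.31 and 0.943 FPKM at day 8, while Hbb-bs had 0 and 0.498 FPKM and Hbb-bt was listed at 0 in both libraries at day 0. Hbb-y, Hbb-bs and Hbb-bt were under 1 FPKM at day 0, so they were tested only through other libraries. Hbb-y and Hbb-bt, at 0 there, could only rise. Hba-a1 and Hba-a2, near-identical copies whose split of reads is uncertain, had 99.2 and 99.0 FPKM and 77.3 and 88.5 FPKM at day 8, against 1.47 and 0.823 FPKM and 0.982 and 1.26 FPKM at day 0. The day 8 libraries thus held far more of the embryonic and alpha globins than of the adult beta globins. Hbb-bt, the lowest of the 7, no longer passed without day 8 replicate 1 (change 0.96, limma adjusted p = 0.0979), day 0 replicate 1 (1.08, limma adjusted p = 0.0674) or day 0 replicate 2 (1.08, limma adjusted p = 0.0686).

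The promoters of 3 of these globins are shown because the genes rose together; each is the 250 bases before the start in RefSeq (GRCm38.p6), read 5′ to 3′ on the gene's strand, with capitals at matches to CACCC, to CCAAT, and to the GATA factor letters AGATAA, searched on both strands. Hba-x lies at chr11:32276350-32276599 (+), Hbb-y at chr7:103853208-103853457 (-) and Hba-a1 at chr11:32283422-32283671 (+).
Hba-x: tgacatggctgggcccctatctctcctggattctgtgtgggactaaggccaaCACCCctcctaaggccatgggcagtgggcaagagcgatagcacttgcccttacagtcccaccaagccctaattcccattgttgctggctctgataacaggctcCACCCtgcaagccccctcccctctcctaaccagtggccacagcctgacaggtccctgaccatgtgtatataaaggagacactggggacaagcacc
Hbb-y: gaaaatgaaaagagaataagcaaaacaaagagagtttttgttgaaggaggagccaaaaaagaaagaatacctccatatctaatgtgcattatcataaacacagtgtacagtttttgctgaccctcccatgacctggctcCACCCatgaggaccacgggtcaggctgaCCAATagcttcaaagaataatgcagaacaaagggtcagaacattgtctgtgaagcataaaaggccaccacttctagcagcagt
Hba-a1: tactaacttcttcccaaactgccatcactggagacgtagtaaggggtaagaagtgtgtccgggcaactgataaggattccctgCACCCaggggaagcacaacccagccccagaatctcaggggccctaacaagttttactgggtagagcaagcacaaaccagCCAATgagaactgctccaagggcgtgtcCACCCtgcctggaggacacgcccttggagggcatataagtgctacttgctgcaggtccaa
CACCC was in 6 of the 6 globin promoters with an entry, against 51.3% of 27025 promoters. CCAAT was in 5 of 6, against 34.5%. The 6 are not independent promoters, since they belong to related genes and Hba-a1 and Hba-a2 are near-identical copies. The letters AGATAA, a form of the GATA factor motif, were in 1 of 6, against 10.3%. That is a narrow form: with AGATAG counted too, beside the forms TGATAA and also TGATAG, which were chosen after these windows had been read, 5 of 6 held a match, against 27.1%, and the Hba-x, Hbb-y and Hba-a1 windows hold TGATAA on one strand or the other, in lower case here. The octamer ATGCAAAT was in 0 of 6, against 1.61%. A match is a description of these letters and not a bound site, and a window without a match says only that these letters are not in it. Hbb-bh1 had no entry and is named only.

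Around the globins, 10 of 19 tested red cell genes rose and 3 fell. Cpox, an enzyme of haem synthesis, had 52.2 and 56.4 FPKM at day 8, against 21.4 and 20.8 FPKM at day 0, a rise of 1.32 (SE 0.10, limma adjusted p = 4.06e-06). Tfrc, the transferrin receptor for iron uptake, went the other way, with 42.1 and 43.0 FPKM at day 8, against 85 and 89.0 FPKM at day 0, a fall of 1.01 (SE 0.08, limma adjusted p = 8.54e-06).

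Of the blood transcription factors, 9 of 14 rose and none fell. Gata1, which drives red cell genes, had 6.68 and 5.56 FPKM at day 8, against 0.395 and 0.305 FPKM at day 0. Nfe2, a bZIP activator of globin genes, had 5.73 and 7.95 FPKM at day 8, against 0.0969 and 0 FPKM at day 0. Both passed, at 2.40 (SE 0.22) and 2.89 (SE 0.27), with limma adjusted p = 1.89e-05 and 1.78e-05. Runx1 and Myb, factors of definitive blood, did not pass: Runx1 had 2.79 and 3.81 FPKM at day 8, against 5 and 3.84 FPKM at day 0, and Myb had 1.19 and 1.91 FPKM at day 8, against 2.54 and 2.21 FPKM at day 0. Among 16 macrophage genes, 3 rose, 1 fell and 12 did not pass. The member that fell was Laptm5, by 2-fold or more, and it had the smallest p of the list. Changes in the list ran from -2.59 to 2.26. The filter counts all 12 libraries of the series, so a member can be tested though near 0 on both days. For such a member, not passing says little. Mrc1, a scavenging receptor, had 7.30 and 7.52 FPKM at day 8, against 0.710 and 0.801 FPKM at day 0. Ptprc, the pan-leukocyte antigen CD45, was listed at 0 in both day 8 libraries and had 0.0292 and 0 FPKM at day 0. Runx1, Myb and Ptprc were named after their values were seen.

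**Figure D2:**
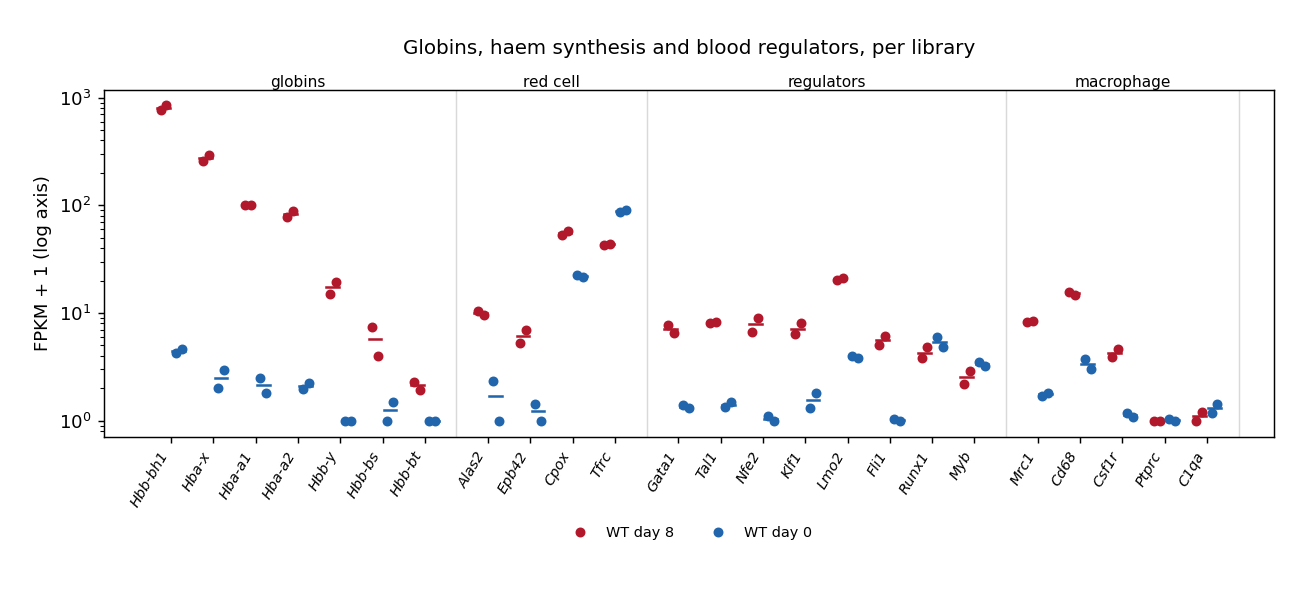
FPKM + 1 (log axis) of blood genes in the 2 WT day 8 libraries (red) and the 2 WT day 0 libraries (blue), with dots for libraries and bars for group means. The embryonic globins Hbb-bh1 and Hba-x stand highest at day 8, adult Hbb-bs and Hbb-bt stay under 7 FPKM, and Tfrc is lower at day 8.

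Vessel genes rose alongside, with 17 of 22 endothelial members higher and 1 lower. The member that fell was Robo4, by 2-fold or more. Tek, the angiopoietin receptor, had 15.2 and 13.7 FPKM at day 8, against 1.01 and 1.16 FPKM at day 0, a rise of 2.89 (SE 0.17, limma adjusted p = 1.12e-06). Nrp1, a co-receptor for VEGF and semaphorins that is not in this list, was among the largest rises of all genes. It had 84.3 and 80.3 FPKM at day 8, against 0.815 and 0.690 FPKM at day 0 (change 5.57, SE 0.13, limma adjusted p = 6.99e-09).

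Secreted plasma proteins formed one of the highest lists at day 8: 20 of 24 tested members rose, none fell, and their summed level was 5671 and 5913 FPKM, against 392 and 396 FPKM at day 0. Apoe, the lipid carrier apolipoprotein E, alone had 2749 and 2867 FPKM at day 8, against 271 and 264 FPKM at day 0, and was among the 10 highest nuclear genes at day 8. Apom, a carrier of sphingosine phosphate, had 149 and 185 FPKM at day 8, against 2.14 and 1.84 FPKM at day 0. Apoc2, the activator of lipoprotein lipase, had 233 and 244 FPKM at day 8, against 2.33 and 3.59 FPKM at day 0. Their changes were 3.39 (SE 0.07), 5.81 (SE 0.19) and 5.94 (SE 0.22), with limma adjusted p = 4.87e-09, 3.74e-08 and 7.06e-08. Alb, serum albumin, which marks liver more than yolk sac, was listed at 0 in all 4 libraries; it was named after its values were seen.

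Endocytic and brush border genes were higher as well, in 8 of 10 tested cases. Vil1, villin of microvilli, had 22 and 22.1 FPKM at day 8, against 0.313 and 0.346 FPKM at day 0, a rise of 4.12 (SE 0.21, limma adjusted p = 4.84e-07). Of the 15 tested endoderm transcription factors 11 rose and 2 fell. Hnf4a, a nuclear receptor of visceral endoderm and liver, had 18.4 and 18.1 FPKM at day 8, against 1.48 and 1.04 FPKM at day 0, a rise of 3.10 (SE 0.24, limma adjusted p = 5.4e-06). Cdx1, a homeobox factor of the gut, had 0.609 and 0.104 FPKM at day 8, against 3.66 and 2.92 FPKM at day 0, a fall of 1.68 (SE 0.27, limma adjusted p = 0.000647). Sox7, a factor of primitive endoderm and of vessels, had 4.45 and 5.48 FPKM at day 8, against 7.86 and 7.37 FPKM at day 0, a fall of 0.54 (SE 0.19, limma adjusted p = 0.0435); that call was lost under 4 other settings and without any 1 library other than those of 1343KO at day 0, at limma adjusted p = 0.0506 to 0.212. Lysosomal genes, which serve protein degradation, rose in 14 of 16 cases. Ctsb, a cathepsin protease, had 115 and 122 FPKM at day 8, against 25.3 and 25 FPKM at day 0, a rise of 2.19 (SE 0.09, limma adjusted p = 1.3e-07). S100g, a calcium-binding protein, and Slc13a4, a sulphate transporter, were among the largest rises, at 5.63 (SE 0.19) and 5.44 (SE 0.25).

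Epithelial and mesenchymal genes rose in parallel. In the epithelial list 10 of 15 rose and 2 fell, and in the mesenchymal list 13 of 15 rose. Krt18, a keratin of simple epithelia, had 387 and 391 FPKM at day 8, against 13.4 and 15.4 FPKM at day 0, a rise of 4.67 (SE 0.09, limma adjusted p = 2.95e-09). The members that fell were Cdh1 and Epcam, adhesion proteins that ES cells already make. Epcam fell by 0.56 (SE 0.08, limma adjusted p = 0.000237). Cdh1 had 74.9 and 77.1 FPKM at day 8, against 101 and 100 FPKM at day 0, a fall of 0.40 (SE 0.06, limma adjusted p = 0.000555). Fn1, fibronectin, had 266 and 288 FPKM at day 8, against 44.0 and 46.1 FPKM at day 0, a rise of 2.59 (SE 0.07, limma adjusted p = 8.97e-09).

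Muscle and matrix genes were higher in embryoid bodies. Acta2, smooth muscle actin, had 138 and 150 FPKM at day 8, against 1.71 and 2.15 FPKM at day 0, a rise of 5.63 (SE 0.10, limma adjusted p = 2.25e-09), and 9 of 13 smooth muscle members rose. Of 19 sarcomere genes 10 rose and 9 did not pass. Tnni1, the slow troponin I of embryonic heart, had 48.4 and 49.5 FPKM at day 8, against 0.350 and 1.75 FPKM at day 0 (change 4.70, SE 0.31, limma adjusted p = 2.06e-06). Fibroblast matrix genes rose in 18 of 20 cases, with Col1a2, a chain of type I collagen, at 74.4 and 83.8 FPKM at day 8, against 5.96 and 6.31 FPKM at day 0 (change 3.49, SE 0.15, limma adjusted p = 1.87e-07). Among mesoderm factors 13 of 19 rose. Tcf15, a bHLH factor of paraxial mesoderm that ES cells also express, fell instead, with 3.60 and 4.24 FPKM at day 8, against 163 and 162 FPKM at day 0 (change -5.06, SE 0.12, limma adjusted p = 6.38e-09).

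Hox genes, which give cells their position along the body axis, rose in 16 of 25 tested cases. Of the others 8 did not pass and 1 fell, a call lost with a pseudocount of 0.1. The list holds 39 genes, and those not tested did not reach 1 FPKM in 2 libraries of the series. Tested members near 0 at day 0 entered only through other libraries and had little room to fall, so the share of rises is not free of the filter. Hoxc8, a trunk gene, had 11.3 and 13.4 FPKM at day 8, against 0.221 and 0.169 FPKM at day 0, a rise of 3.48 (SE 0.21, limma adjusted p = 1.48e-06). Halr1, a noncoding RNA beside the Hoxa cluster, fell, with 0.613 and 0 FPKM at day 8, against 51.9 and 71.8 FPKM at day 0 (change -5.61, SE 0.39, limma adjusted p = 3.02e-06).

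Imprinted genes, which are expressed from 1 parental allele and include many regulators of fetal growth, rose in 21 of 24 tested cases with a median change of 2.93. Their summed level was 5678 and 5755 FPKM at day 8, against 785 and 856 FPKM at day 0. Igf2, a fetal growth factor, had 1728 and 1759 FPKM at day 8, against 46.0 and 51.6 FPKM at day 0. H19, the noncoding RNA of the same locus, had 460 and 449 FPKM at day 8, against 18.9 and 17.7 FPKM at day 0. Mest, a paternally expressed hydrolase gene, had 421 and 424 FPKM at day 8, against 52.0 and 60.4 FPKM at day 0. Their changes were 5.13 (SE 0.11), 4.56 (SE 0.09) and 2.89 (SE 0.08), with limma adjusted p = 4.87e-09, 2.95e-09 and 1.49e-08. Genes of 1 locus that are known to be expressed from opposite alleles both rose: Igf2 with H19, and Dlk1, at 304 and 324 FPKM at day 8 against 12.6 and 13.4 FPKM at day 0, with Meg3, at 562 and 614 FPKM at day 8 against 71.6 and 77.7 FPKM at day 0. Dlk1 was named after its values were seen. Airn and Igf2os overlap Igf2r and Igf2 on the other strand, and the kit is not stated to keep strand, so their rises of 3.36 (SE 0.48) and 3.31 (SE 0.19) cannot be told apart from reads of those genes; without day 8 replicate 2 the rise of Airn was 2.71 and without day 8 replicate 1 it was 4.0. Allelic origin was not analysed here.

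DNA methylation genes fell, in 10 of 13 tested cases. Dnmt3l, the cofactor of de novo methylation, had 6.79 and 6.07 FPKM at day 8, against 130.4 and 120.1 FPKM at day 0, a fall of 4.09 (SE 0.15, limma adjusted p = 5.6e-08). Tet1, which oxidises methylcytosine, had 6.84 and 10.1 FPKM at day 8, against 127 and 112 FPKM at day 0, a fall of 3.69 (SE 0.16, limma adjusted p = 1.47e-07). Tet3, another TET enzyme, rose, with 9.12 and 9.14 FPKM at day 8, against 2.39 and 2.56 FPKM at day 0 (change 1.54, SE 0.14, limma adjusted p = 1.76e-05). Dnmt1, the maintenance enzyme, changed least among those that fell, by -0.24 (SE 0.08, limma adjusted p = 0.0294), and the call did not hold scaled to TPM (-0.14, limma adjusted p = 0.182), with the 4 WT libraries alone (-0.24, limma adjusted p = 0.0619), or without any 1 of these 4, where the change was -0.25 to -0.23 (limma adjusted p = 0.0785 to 0.108).

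**Figure D3:**
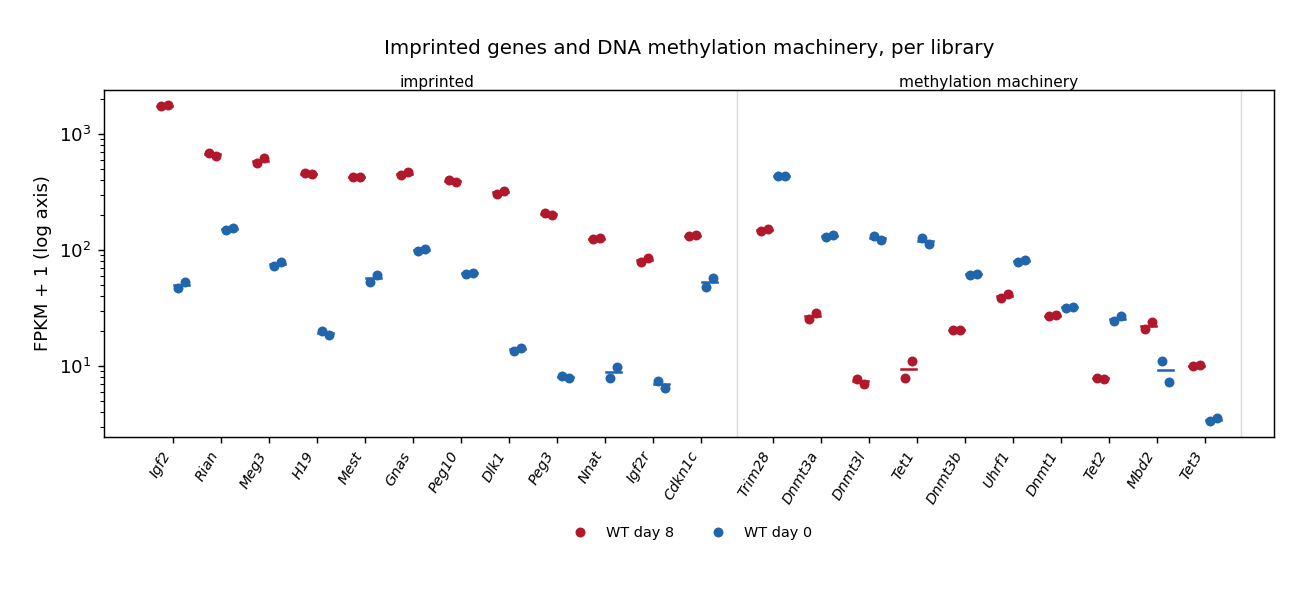
FPKM + 1 (log axis) of imprinted and DNA methylation genes in the 2 WT day 8 libraries (red) and the 2 WT day 0 libraries (blue), with dots for libraries and bars for group means. The 12 imprinted genes drawn lie higher at day 8, and of the methylation genes drawn Tet3 and Mbd2 lie higher and the others lower.

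Replication genes fell in 16 of 18 tested cases, by moderate amounts (median -0.80). Mcm5, a subunit of the replicative helicase, had 56.7 and 53.9 FPKM at day 8, against 160.0 and 163.8 FPKM at day 0, a fall of 1.53 (SE 0.10, limma adjusted p = 1.55e-06). Mitosis genes moved less, with 10 of 20 lower, 1 higher and a median of -0.26. The member that rose was Mki67, a marker of cycling cells, with 51.2 and 54.5 FPKM at day 8, against 32.1 and 35.3 FPKM at day 0 (change 0.63, SE 0.08, limma adjusted p = 0.000181). Among cyclins of G1, Ccne1 had 11 and 10.7 FPKM at day 8, against 87.8 and 92.1 FPKM at day 0, while Ccnd2 had 54.2 and 49.7 FPKM at day 8, against 6.86 and 5.89 FPKM at day 0. Ccne1 fell by 2.94 (SE 0.14) and Ccnd2 rose by 2.85 (SE 0.10), with limma adjusted p = 2.76e-07 and 5.69e-08. Cdkn1a, the inhibitor p21, rose by 2.34 (SE 0.13, limma adjusted p = 6.99e-07). Hmga2, a chromatin protein and let-7 target, had 122 and 113 FPKM at day 8, against 6.99 and 7.39 FPKM at day 0, a rise of 3.86 (SE 0.10, limma adjusted p = 1.22e-08), whereas Myc fell by 1.98 (SE 0.10, limma adjusted p = 5.53e-07).

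Glycolysis and hypoxia genes had a median change of 0.01, which was -0.00494 with median-of-ratios scaling, made of 9 rises and 6 falls among 20. The glucose transporter Slc2a1 had 433 and 461 FPKM at day 8, against 145 and 137 FPKM at day 0, a rise of 1.65 (SE 0.06, limma adjusted p = 8.07e-08). Pkm, pyruvate kinase, had 490 and 527 FPKM at day 8, against 924 and 923 FPKM at day 0, a fall of 0.86 (SE 0.06, limma adjusted p = 2.17e-06). Vegfa, the vessel growth factor, rose by 2.22 (SE 0.11, limma adjusted p = 3.39e-07).

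Neural genes were more often lower than higher at day 8: 1 of 15 tested members rose, 7 fell and 7 did not pass. Stmn2, a microtubule regulator of neurons, had 2.48 and 2.98 FPKM at day 8, against 95.4 and 99.7 FPKM at day 0, a fall of 4.73 (SE 0.13, limma adjusted p = 1.22e-08). Olig2, a factor of neural progenitors, had 0.393 and 0.474 FPKM at day 8, against 11.3 and 10.7 FPKM at day 0, a fall of 3.07 (SE 0.23, limma adjusted p = 4.38e-06). Of 14 trophoblast genes 7 rose and 1 fell. Cdx2, a factor of trophectoderm and of posterior mesoderm and gut, had 12.8 and 16.2 FPKM at day 8, against 0.708 and 0.249 FPKM at day 0, a rise of 3.40 (SE 0.28, limma adjusted p = 8.09e-06). The placental products Prl3d1 and Tpbpa stayed under 1 FPKM in all 4 libraries; both were named after their values were seen.

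**Figure D4:**
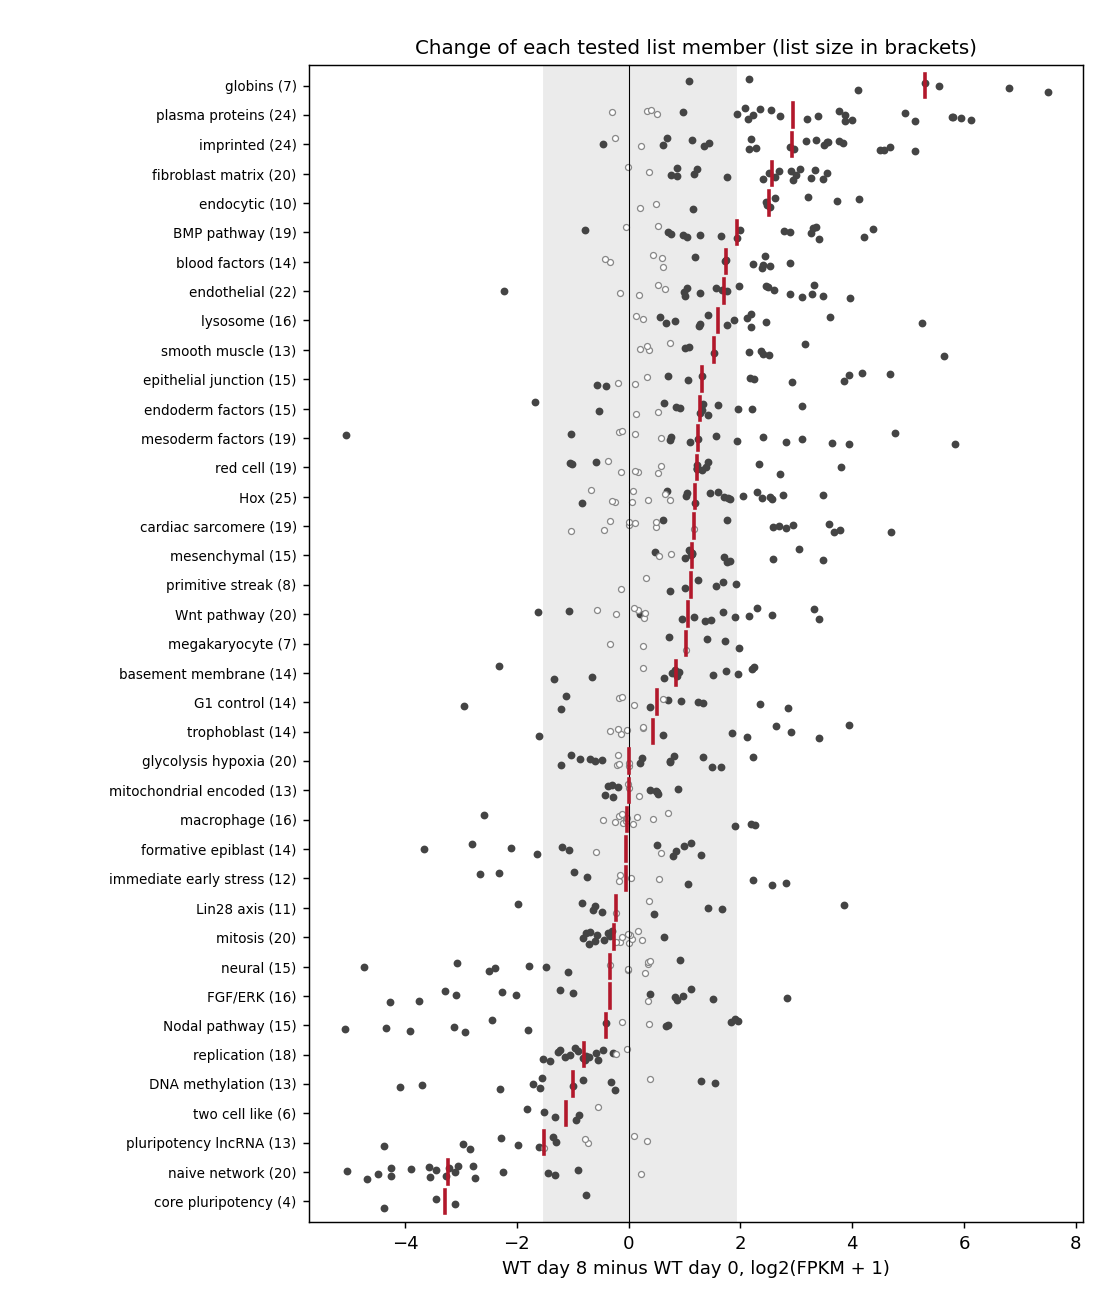
Change of every tested member of the 39 gene lists, WT day 8 minus WT day 0 in log2(FPKM + 1); filled dots passed at adjusted p under 0.05, open dots did not, red bars are list medians and the grey band spans the 5th to 95th percentile of all tested genes. Globins (median 5.31), plasma proteins and imprinted genes lie at the top, and naive and core pluripotency genes (medians -3.24 and -3.28) at the bottom.

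The 1343KO line passed through the same days and shares no library with the WT pair. In WT 51.3% of genes changed, and in 1343KO 23.5%. The share in each direction was not counted for 1343KO, whose median change over all tested genes was 0.069. The change itself differed between the lines for 4605 genes (28.3%), of which 2071 (12.7%) had the higher change in WT and 2534 (15.6%) the lower; scaled to TPM the split was 2623 and 1806. That scaling moved the median difference of all genes to 0.07, against -0.06 as deposited. Both lines called 2918 genes, which is 34.9% of the WT calls and 76.2% of the 1343KO calls, and 2695 of them changed in the same direction.

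For naive genes 20 of 20 changes differed, 19 of them lower in WT. In 1343KO 10 of the 20 fell and 3 rose, with a median change of -0.55. Utf1 in 1343KO had 227 and 203 FPKM at day 8, against 232 and 239 FPKM at day 0, and its change in WT minus that in 1343KO was -4.12 (SE 0.15, limma adjusted p = 6.95e-07). Imprinted genes differed in 22 of 24 cases, 21 of them higher in WT, although 14 of the 24 rose in 1343KO as well and 4 fell. Igf2 was among those that rose there, to 369 and 393 FPKM at day 8, against 60.3 and 45.6 FPKM at day 0. Its change was 5.13 in WT and 2.84 in 1343KO, a difference of 2.29 (SE 0.15, limma adjusted p = 1.87e-05). Id2 did not pass in 1343KO, with 24.9 and 26.9 FPKM at day 8 and 32.1 and 25.3 FPKM at day 0, and differed by 3.40 (SE 0.16, limma adjusted p = 2.49e-06).

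In the epithelial list 13 of 15 members rose in 1343KO, with a median change of 1.31 in WT and 1.43 in 1343KO, and 10 changes differed, 6 of them higher and 4 lower in WT. Its keratins Krt8, Krt18 and Krt19 rose in both lines and by more in WT: Krt8 changed by 3.94 in WT and 2.78 in 1343KO, a difference of 1.16 (SE 0.09, limma adjusted p = 4.31e-05). Epcam fell in WT and rose by 0.36 in 1343KO, a difference of -0.93 (SE 0.11, limma adjusted p = 0.000357). Glycolysis genes differed in 19 of 20 cases, 16 of them lower in WT. Pkm in 1343KO had 1175 and 1108 FPKM at day 8, against 881 and 891 FPKM at day 0, so that it rose there and fell in WT (difference -1.22, SE 0.08, limma adjusted p = 1.56e-05). Dab2, an endocytic adaptor of extraembryonic endoderm, changed by 2.48 in WT and 2.12 in 1343KO, and the difference of 0.36 (SE 0.17) did not pass (limma adjusted p = 0.164).

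**Figure D5:**
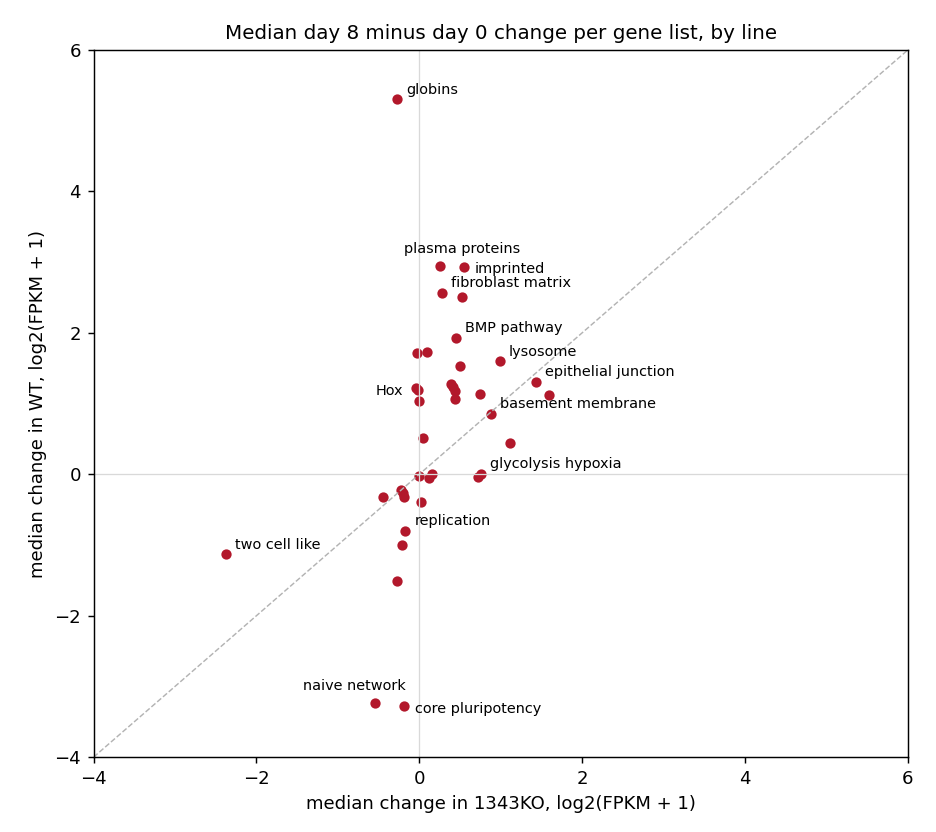
Median change from day 0 to day 8 of each gene list in WT (vertical) against 1343KO (horizontal), in log2(FPKM + 1); 1 dot is 1 list, the dashed line marks equal change and some lists are labelled. Globins lie far above the line (5.31 in WT, -0.27 in 1343KO), and core pluripotency genes far below it (-3.28 in WT, -0.19 in 1343KO).

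Estimated depth was about 7600000 and 6280000 fragments at day 8, against 7480000 and 5820000 at day 0. Mitochondrial transcripts held 9.52% and 8.69% of summed FPKM at day 8, against 7.66% and 8.12% at day 0, and their part in the results was not tested. At least 1 FPKM was reached by 13311 and 13372 genes at day 8, against 12909 and 12974 at day 0.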

How the data were processed

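Poly(A) RNA was sequenced from WT and 1343KO cells at days 0, 8 and 16, with 2 libraries per group, made with the NEBNext Ultra II kit per the labels' protocols. The authors deposited FPKM values per gene for 54537 genes. Cufflinks 2.1.1 and GRCm38 (mm10) are named per the submitters' processing notes; no aligner or annotation is given in the sources used here. Coordinates were equal to GENCODE M21 for 98.6% of genes after adding 1 to the starts. An exact 0 may be a failed estimate or a gene that is off in that group. Of 6620 well expressed genes (median 10 FPKM or more over all libraries), 17 are at 0 in some library, and which of these holds was not tested. Depth is not given and was estimated from the steps of low values, at about 4820000 to 7920000 fragments over the 12 libraries. Of the lowest values, 67.1% to 73.1% then lay within 5% of a fragment from a whole number. The depth was itself chosen for the most values that close to 1 fragment, so this share is no independent check. No count test was run.

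The 16289 genes that reached 1 FPKM in 2 or more libraries were fitted on log2(FPKM + 1) with limma 3.58.1 in R 4.3.3, with 1 mean for each of 6 groups over all 12 libraries, a variance trend and 6 residual degrees of freedom. P-values are two-sided and Benjamini-Hochberg adjusted over all tested genes. An exact permutation test of 2 against 2 libraries cannot go below p = 0.333, so calls rest on the spread pooled over genes and groups. The members, the 39 lists (660 entries, 652 in the table), the motifs and the rules were chosen with earlier results of these data known. The 8 list entries without a row were not analysed here. Named genes were the 20 largest changes each way that passed without overlap of libraries and with a mean of at least 5 FPKM in the higher group, the 10 highest genes of each day, up to 5 members per list by smallest p with members called against their list's direction, core pluripotency, globin, Dnmt and Tet genes, and 5 noncoding RNAs each way; the text names part of these. Promoters come from RefSeq. A wider set of GATA letters, given beside the first choice, and an Oct-Sox composite, found in 0 of 6 globin promoters, were tried after the windows had been read. The fit was tested on simulated data. Settings varied were the pseudocount (0.1), the filter (none, or a mean of 5 FPKM or more), the scaling (TPM or median-of-ratios), a replicate block, robust empirical Bayes, the libraries in the fit (the comparison's own, or all but 1). Tables and figures used pandas 2.3.3 and matplotlib 3.10.9 in Python 3.11.15.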

Additional observations from a re-analysis of the deposited data

Results flagged for a closer look

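The change from day 0 to day 8 differed between WT and 1343KO, by limma's test of the difference, for 4605 genes and for the following core and globin genes. The change in WT minus that in 1343KO was -3.53 for Pou5f1, -3.11 for Sox2, -3.24 for Nanog and -0.58 for Sall4, all lower in WT on the log2(FPKM + 1) scale. The globins differed in the other direction, with Hbb-bh1 at 8.57, Hba-x at 7.25, Hba-a1 at 5.84, Hba-a2 at 5.30, Hbb-y at 4.20 and Hbb-bs at 2.16. In 1343KO Pou5f1 had 469 and 453 FPKM at day 8, against 851 and 801 FPKM at day 0, and Hba-x had 1.18 and 0.774 FPKM at day 8, against 2.33 and 1.16 FPKM at day 0. The Sall4 difference no longer passed under TPM scaling (-0.40, limma adjusted p = 0.0704), or without WT day 8 replicate 1 (-0.49, limma adjusted p = 0.0751), WT day 0 replicate 1 (-0.55, limma adjusted p = 0.0643), 1343KO day 8 replicate 1 (-0.46, limma adjusted p = 0.0698) or 1343KO day 0 replicate 2 (-0.51, limma adjusted p = 0.07). The cause of these differences was not tested.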

How the results depend on the processing

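Of the 278 genes chosen for naming, 272 passed, and 253 of these passed under every alternative that tested them. Not every alternative tested all of them: the filter of 5 FPKM tested 222 of the 278. Most were chosen by a pass or a small p, so the 272 was largely set by that choice. The count of genes that changed in WT (8352) lay between 6118, with a mean of at least 5 FPKM (9602 genes tested), and 8410, with median-of-ratios scaling. With its own 4 libraries alone it was 7978. At 2-fold or more it was 4274, and 2690 with a mean of at least 5 FPKM (1495 higher and 1195 lower), where fewer genes were tested. The 2-fold count was 5249 with a pseudocount of 0.1 and 4958 with TPM scaling (3137 higher and 1821 lower, against 2476 and 1798). Without the 2-fold limit, TPM scaling gave 4812 higher and 3582 lower, against 4364 and 3988. Leaving out each library in turn gave 6872 to 8301 genes. The count of genes whose change differed between the lines was 3571 to 4450 when each library was left out. The median change of 34 of the 39 lists kept its direction under every alternative run, although 151 of 778 medians moved by more than the spread between libraries without turning. The other 5 lists, whose medians lay within 0.049 of 0, turned under at least 1 setting. The formative epiblast median was 0.50 under the filter of 5 FPKM, the immediate early median was 0.042 with TPM scaling, and the glycolysis and mitochondrial medians turned by less than the spread between libraries. The macrophage median was 2.04 with its own libraries alone and -0.035 to 1.9 when each library was left out, 1.9 being that without either WT day 16 library. The filter runs on the libraries of each fit, so those fits tested fewer genes (13913, 15780 and 15784, against 16289). Their macrophage medians therefore need not cover the same members, and how far this moved them was not tested. Replicate numbers did not pair the samples: the differences between replicates correlated at -0.036 to 0.036 between groups. With the replicate number as a block, 8294 genes passed in WT, and 4501 differed between the lines. Depth was only estimated, and its part in the changes of low genes was not tested.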
